A study of Mus musculus with 18 samples.

Results

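The comparison described here is the difference of the paraquat effect between 2 genotypes of mouse cerebellum: the change after paraquat in mice carrying an apolipoprotein D (ApoD) transgene, minus the change after paraquat in wild-type mice. It rests on 12 of the 18 arrays of the series, 3 for each of 4 groups: wild-type given saline, wild-type given paraquat, transgenic given saline and transgenic given paraquat. The transgenic mice are labelled "Human-ApoD transgenic gain of function mutant", and the series' design text places the excess ApoD in neurons. The promoter of the transgene is not named in the sources used here, nor is the number of founder lines. All mice were males aged 80 ± 5 days. A single intraperitoneal dose of 30 mg/kg paraquat, dissolved in 200 µl saline, or the same volume of saline was given 6 h before the cerebellum was taken. RNA of 3 mice was pooled for each array, so that replicates are pools and the variation between single mice was not seen. The 6 arrays of ApoD knock-out mice, 3 after saline and 3 after paraquat, entered the shared estimate of the spread, and their own paraquat effect supplied a list of paraquat-responsive genes.

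Paraquat is a herbicide that cycles between an oxidised and a reduced form and passes electrons to oxygen, which yields superoxide. An injected toxicant also activates the adrenal stress axis, and glucocorticoid hormone binds its receptor in neurons, glia and vessels, where it switches on genes such as Fkbp5, Sgk1 and Tsc22d3. ApoD is a secreted lipocalin made mainly by glia in the adult brain, and it is known for binding lipids and for protecting against oxidative stress. A difference of differences asks whether genotype alters the response itself, apart from any level that already differed under saline.

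The signal of Apod came first as a check of the labels. Its log2 value was 12.47, 12.38 and 12.54 in wild-type saline and 8.40, 8.22 and 8.50 in knock-out saline, so that the knock-out arrays lay far below. In transgenic saline it was 12.25, 12.28 and 12.35, and under paraquat it was 12.53, 12.68 and 12.76 in wild-type and 12.13, 12.29 and 12.32 in transgenic. The probe set was thus no higher in the transgenic arrays than in the wild-type arrays, and whether it can bind the human transcript is not stated in the sources used here. The difference of the paraquat effect for Apod was -0.24 ± 0.19 (SE), with a 95% interval of -0.64 to 0.16. The second knock-out paraquat array stood apart from the other 17, with a median log2 value of 6.98, and the knock-out list, slopes and correlations are given with and without it. The 12 arrays compared had median log2 values of 7.10 to 7.15. Markers of cerebellar granule and Purkinje neurons read high, with Gabra6, Cbln1, Pcp2 and Calb1 above the 98th percentile of genes, whereas the forebrain marker Tbr1 did not pass the filter on low values.

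Of 8320 genes tested, 15 differed in their paraquat effect between transgenic and wild-type cerebellum (limma, adjusted p under 0.05), which is 0.18% of genes. All 15 rose under paraquat in wild-type and had a smaller effect in the transgenic, and 0 genes were called in the opposite direction. They include Lcn2 and Lrg1, which encode secreted acute-phase proteins, and Fkbp5, a classic target of the glucocorticoid receptor, the kinase Sgk3 and the cell-cycle inhibitor Cdkn1a. They also include Gadd45g, Polr3e, Nrros, Pnpla2, Ada, Cirbp, Mertk, Spns2, Mrnip and Smim3. The difference ran from -2.06 for Lcn2 to -0.73 for Mrnip on the log2 scale, where 1 unit is a doubling. At an unadjusted p under 0.05 there were 378 genes (4.54%), 297 with a smaller and 81 with a larger effect in the transgenic.

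**Figure D1:**
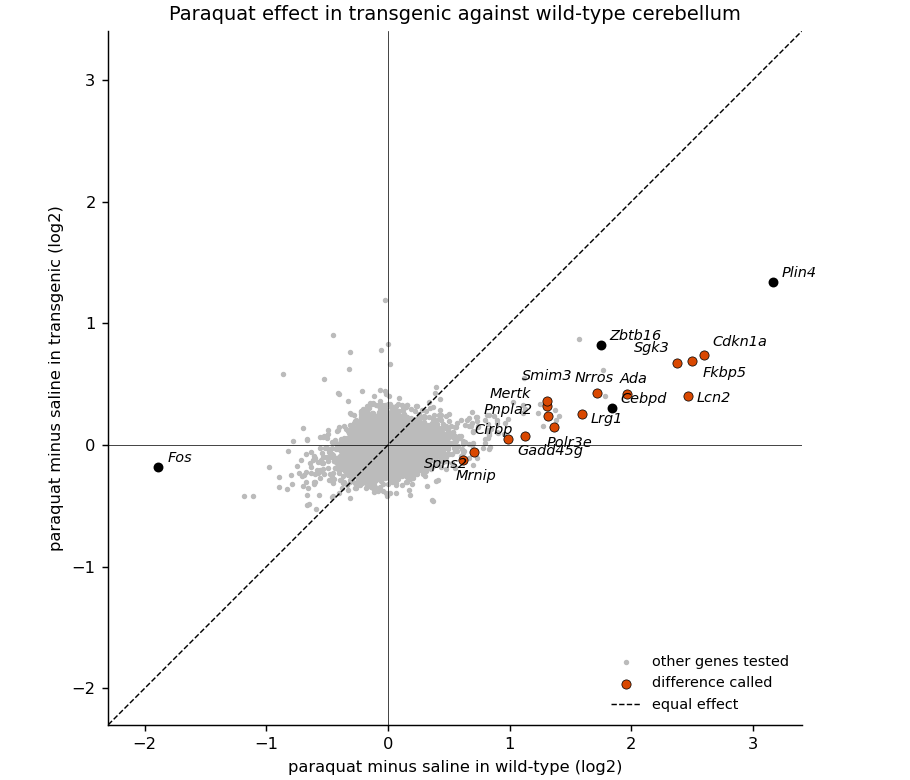
Paraquat effect (log2, paraquat minus saline) in wild-type on the horizontal axis against that in transgenic on the vertical axis for 8320 genes, each effect from 3 against 3 arrays. Orange points are the 15 genes whose difference was called, which lie between 0.61 and 2.59 in wild-type and between -0.12 and 0.74 in transgenic; black points are 4 further genes with large effects in wild-type, and the dashed line marks equal effects.

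The 4 comparisons that make up the difference share its arrays, and their counts are given side by side. Paraquat against saline called 166 genes in wild-type (2% of those tested), 127 higher (1.53%) and 39 lower (0.469%). The same comparison called 0 genes in transgenic (0%), with 118 at an unadjusted p under 0.05 (1.42%). Transgenic against wild-type called 529 genes under saline (6.36%), 364 of them lower (4.38%), and 1578 under paraquat (19%), 1192 of them lower (14.3%). Single arrays moved these counts: the paraquat count in wild-type was 82 when replicate 1 of wild-type saline was dropped and 353 when replicate 2 of knock-out paraquat was dropped. Of the 15 genes, 15 were called under paraquat in wild-type, 0 under paraquat in transgenic, 0 for transgenic against wild-type under saline and 15 for transgenic against wild-type under paraquat. In all 15, every wild-type paraquat array lay above every wild-type saline array, which holds for 16.6% of all genes. Every transgenic paraquat array lay below every wild-type paraquat array in 15, against 27.6% of all genes. In 2 of the 15, Sgk3 and Nrros, every transgenic paraquat array lay above every transgenic saline array, against 1.18% of all genes. The 15 were chosen by a difference taken from these same arrays. Their counts, beside the shares of all genes, thus describe the choice and are no further support.

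The size of the called list depended on single arrays. Without replicate 1, 2 or 3 of wild-type saline, 7, 4 and 10 genes were called, and without replicate 1, 2 or 3 of wild-type paraquat, 5, 6 and 6. Leaving out the arrays of transgenic saline in turn gave 13, 5 and 13 genes, and leaving out those of transgenic paraquat gave 22, 9 and 7. The second knock-out paraquat array enters the estimate of the spread, the filter and the choice of probe sets, but no group mean of the difference. With that array left out of the fit, and the genes and probe sets kept as they were, 34 genes were called, including the 15. In each of these 13 fits the 15 genes, which were chosen for a negative difference, kept one. Lcn2 and Sgk3 were called in every one of them, and so were Polr3e and Gadd45g. A fit of the 12 compared arrays alone called 10 genes, including 8 of the 15, with Cdkn1a and Fkbp5 among those that lost the call. A comparison of 3 with 3 arrays limits the precision, and the 95% interval of the difference had a half-width of 0.38 for the median gene.

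**Figure D2:**
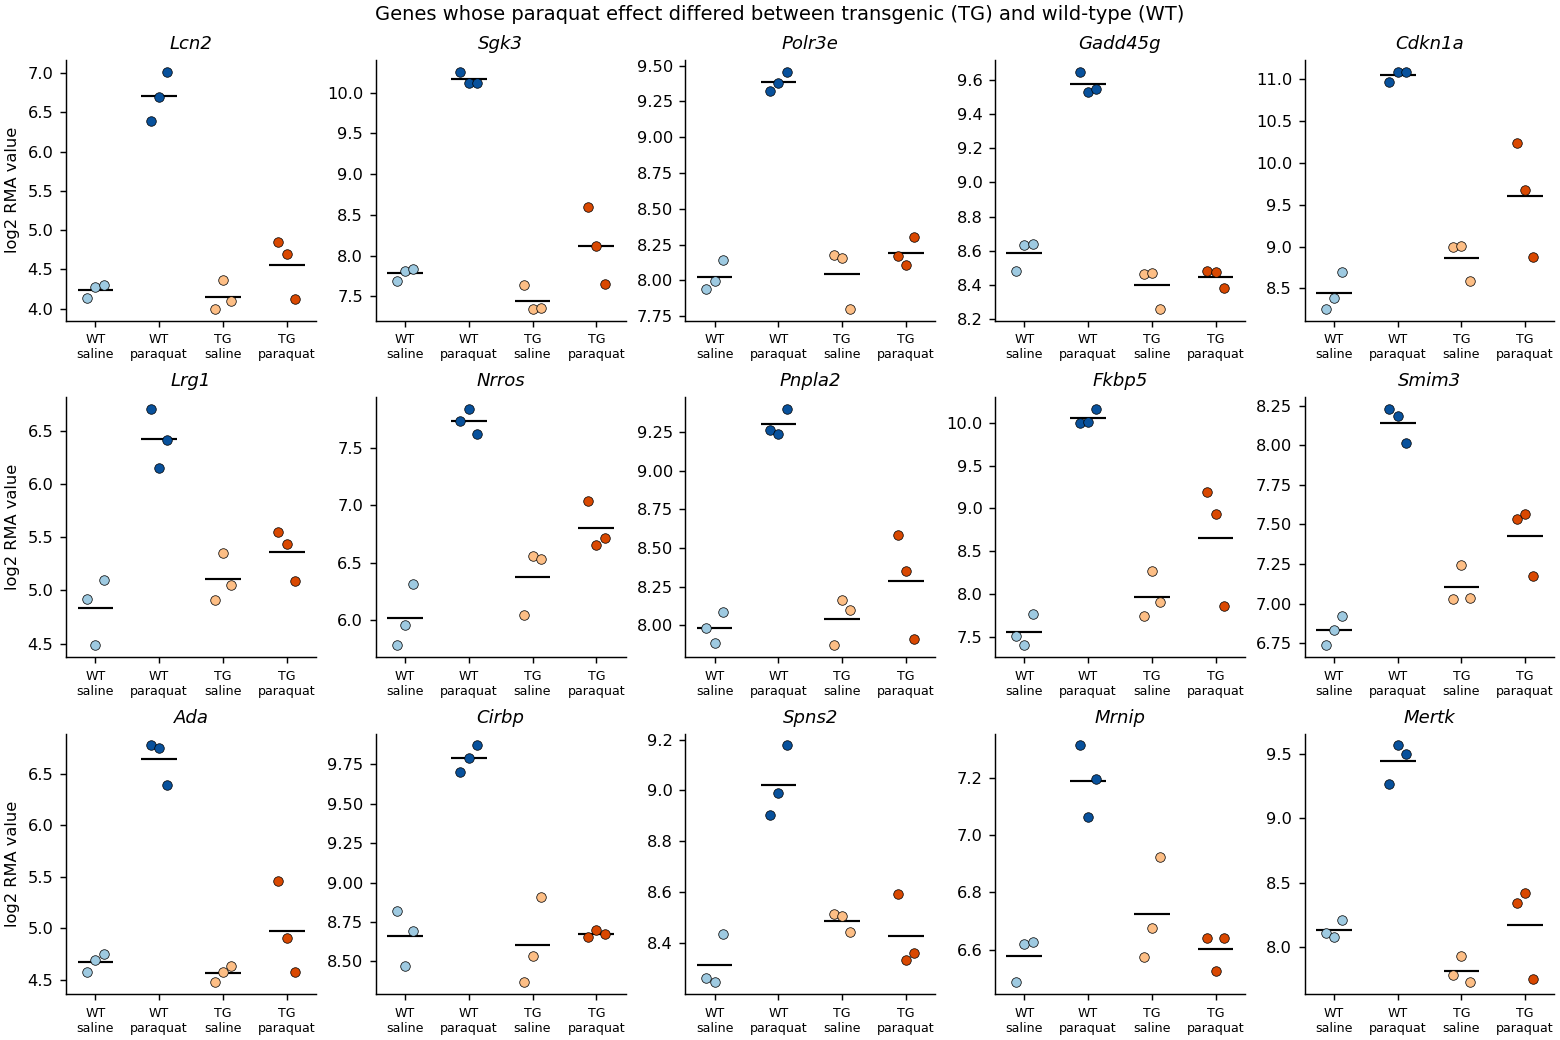
Log2 RMA value (vertical axis, a separate range for each panel) of the 15 called genes on each of the 3 arrays in 4 groups; WT is wild-type and TG transgenic, points are arrays and bars are group means. In every panel the 3 wild-type paraquat arrays lie above all other arrays shown, and the first transgenic paraquat array is often the highest of its group, as for Cdkn1a at 10.24 against 9.68 and 8.88.

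Among the called genes of the glucocorticoid list, Fkbp5, Sgk3 and Cdkn1a rose 5.65-fold, 5.20-fold and 6.04-fold in wild-type. Their transgenic paraquat means were 1.61, 1.596 and 1.67 times those of transgenic saline. Fkbp5 encodes a co-chaperone that holds the glucocorticoid receptor in a low-affinity state and is itself induced by the receptor. It read 7.51, 7.40 and 7.77 in wild-type saline and 10.003, 10.01 and 10.17 in wild-type paraquat, against 7.74, 8.27 and 7.91 in transgenic saline and 9.19, 8.93 and 7.86 in transgenic paraquat. The wild-type groups were far apart, while the third transgenic paraquat array fell within the transgenic saline range. The paraquat effect on Fkbp5 was 2.50 ± 0.24 (SE) in wild-type and 0.69 ± 0.24 in transgenic, a difference of -1.81 ± 0.34 with adjusted p 0.0264. Here and below, the SE of an effect comes from the spread shared by all 6 groups and is therefore equal in both genotypes. It does not show that the transgenic paraquat arrays of a gene such as Fkbp5 scattered more than the wild-type ones. A further Fkbp5 probe set gave a difference of -1.26.

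Sgk3, an endosomal kinase of the serum- and glucocorticoid-regulated family, read 7.70, 7.81 and 7.84 in wild-type saline and 10.25, 10.11 and 10.12 after paraquat. In the transgenic it read 7.64, 7.35 and 7.35 under saline and 8.60, 8.12 and 7.65 after paraquat. All 3 transgenic paraquat arrays were above the transgenic saline arrays, the third only just, and all were far below the wild-type paraquat arrays. The difference of the effect was -1.70 ± 0.24 (adjusted p 0.00283), and both other probe sets of Sgk3 were negative too, at -1.34 and -1.42.

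Cdkn1a encodes p21, an inhibitor of cyclin-dependent kinases that is induced by p53 and by glucocorticoids. It read 8.26, 8.39 and 8.69 in wild-type saline and 10.96, 11.08 and 11.08 in wild-type paraquat. The transgenic arrays read 8.99, 9.002 and 8.59 under saline and 10.24, 9.68 and 8.88 under paraquat, so that the first and second rose clear of saline and the third did not. The effect was 2.59 ± 0.22 in wild-type and 0.74 ± 0.22 in transgenic, and the difference was -1.86 ± 0.31 (adjusted p 0.0119). Mertk, a receptor tyrosine kinase through which glia and macrophages take up dying cells, read 8.11, 8.08 and 8.21 in wild-type saline and 9.26, 9.56 and 9.50 after paraquat. Its transgenic values were 7.78, 7.93 and 7.73 under saline and 8.34, 8.42 and 7.75 after paraquat. Mertk, like Sgk3 and Gadd45g, was lower in every transgenic saline array than in every wild-type saline array, which holds for 18.2% of all genes. The difference of effect for Mertk, -0.95 ± 0.19, shared with Mrnip the adjusted p closest to the threshold (limma, 0.0482).

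The secreted and surface proteins of inflammation in the list were Lcn2, Lrg1 and Nrros. Lcn2 encodes lipocalin 2, a protein that sequesters iron-carrying siderophores and, like ApoD, is a lipocalin. Its values were 4.14, 4.28 and 4.30 in wild-type saline and 6.39, 6.70 and 7.01 in wild-type paraquat, and 4.002, 4.37 and 4.09 in transgenic saline and 4.85, 4.69 and 4.13 in transgenic paraquat. Saline values were close to the bottom of the array's scale, whose lowest value was 3.13, and the third transgenic paraquat array stayed among them. Lcn2 rose 5.51-fold in wild-type, and its mean in transgenic was 1.32-fold that of saline. The difference of -2.06 ± 0.28 (adjusted p 0.00283) was the most negative of the 15.

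Lrg1, a secreted leucine-rich glycoprotein of the acute phase, read 4.92, 4.48 and 5.10 in wild-type saline and 6.71, 6.16 and 6.42 after paraquat. The transgenic arrays read 4.91, 5.35 and 5.05 under saline and 5.55, 5.44 and 5.09 after paraquat, with overlap between the groups. Its difference was -1.34 ± 0.24 (adjusted p 0.0214). Nrros, a transmembrane protein of myeloid cells that limits production of reactive oxygen species by the phagocyte oxidase, read 5.78, 5.95 and 6.32 in wild-type saline and 7.73, 7.84 and 7.62 after paraquat. In transgenic arrays it read 6.04, 6.55 and 6.53 under saline and 7.04, 6.65 and 6.71 after paraquat, a small shift without overlap. The paraquat effect on Nrros was 1.71 ± 0.17 in wild-type and 0.42 ± 0.17 in transgenic (difference -1.29 ± 0.24, adjusted p 0.0264).

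Gadd45g and Mrnip stand for growth arrest and DNA damage. Gadd45g, a small stress sensor that acts on the p38 and JNK kinase pathways, read 8.48, 8.64 and 8.64 in wild-type saline and 9.65, 9.53 and 9.55 after paraquat. In transgenic it read 8.47, 8.47 and 8.26 under saline and 8.48, 8.48 and 8.39 under paraquat, so that the groups overlapped almost fully. Its effect was 0.99 ± 0.10 in wild-type and 0.05 ± 0.10 in transgenic, where the 95% interval ran from -0.16 to 0.26 (difference -0.94 ± 0.14, adjusted p 0.00414). Mrnip, a partner of the MRN complex that senses double-strand breaks, read 6.49, 6.62 and 6.63 in wild-type saline and 7.31, 7.06 and 7.19 after paraquat. The transgenic arrays read 6.58, 6.68 and 6.92 under saline and 6.64, 6.53 and 6.64 under paraquat, with no separation (difference -0.73 ± 0.15). Mrnip was not called under paraquat in knock-out, where its effect was 0.30 ± 0.10 (limma, adjusted p 0.139). Without the second knock-out paraquat array that effect was 0.33 (adjusted p 0.143). Spns2 was not called in knock-out either, at 0.40 (limma, adjusted p 0.0514), but without the same array it was, at 0.46 (adjusted p 0.0272).

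Metabolic enzymes and transporters among the 15 were Pnpla2, Ada and Spns2. Pnpla2 encodes adipose triglyceride lipase, which starts the breakdown of triglyceride in lipid droplets. It read 7.98, 7.89 and 8.08 in wild-type saline and 9.27, 9.24 and 9.40 after paraquat, and 7.87, 8.16 and 8.10 in transgenic saline and 8.59, 8.35 and 7.91 after paraquat. The third transgenic paraquat array lay within the saline range (difference -1.08 ± 0.20, adjusted p 0.0264). Another Pnpla2 probe set, of a low mean log2 value of 4.19, gave 0.28, of opposite sign, and averaging both probe sets took the gene's difference to -0.40 and ended the call. Ada, adenosine deaminase, read 4.58, 4.70 and 4.75 in wild-type saline and 6.77, 6.75 and 6.39 after paraquat. Its transgenic values were 4.48, 4.58 and 4.63 under saline and 5.46, 4.90 and 4.58 under paraquat, of which the first was clearly the highest and the third within saline (difference -1.55 ± 0.29, adjusted p 0.0264). Spns2, which exports sphingosine-1-phosphate from endothelium, read 8.26, 8.25 and 8.44 in wild-type saline and 8.90, 8.99 and 9.18 after paraquat. In transgenic it read 8.51, 8.51 and 8.44 under saline and 8.59, 8.33 and 8.36 after paraquat (difference -0.77 ± 0.15, adjusted p 0.0339). Spns2, like Smim3, was slightly higher in every transgenic than in every wild-type saline array, although neither was called there. The same separation holds for 1203 of all 8320 genes.

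The remaining called genes act on RNA or have no settled role. Polr3e, a subunit of RNA polymerase III, which makes transfer RNA and 5S ribosomal RNA, read 7.94, 7.99 and 8.14 in wild-type saline and 9.32, 9.38 and 9.46 after paraquat. Its transgenic arrays read 8.18, 8.16 and 7.80 under saline and 8.17, 8.11 and 8.30 under paraquat. Its effect was 1.36 ± 0.13 in wild-type and 0.15 ± 0.13 in transgenic (difference -1.21 ± 0.18, adjusted p 0.00414), and the other Polr3e probe set gave -1.10. Cirbp, an RNA-binding protein induced by mild cold, read 8.82, 8.47 and 8.70 in wild-type saline and 9.70, 9.79 and 9.87 after paraquat. The 3 transgenic paraquat arrays, at 8.65, 8.70 and 8.67, lay inside the range of the transgenic saline arrays, at 8.37, 8.53 and 8.91 (difference -1.05 ± 0.20, adjusted p 0.0264). Smim3, a small membrane protein, read 6.74, 6.84 and 6.92 in wild-type saline and 8.23, 8.18 and 8.01 after paraquat, and 7.03, 7.24 and 7.04 in transgenic saline and 7.54, 7.57 and 7.18 after paraquat (difference -0.99 ± 0.19, adjusted p 0.0264).

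The promoters of 4 called genes are given here, of which Lcn2, Cdkn1a and Fkbp5 are also on the glucocorticoid list. That the 4 genes moved the same way follows from their choice among the called genes. Each promoter is the 250 bases before the start site, 5′ to 3′ on the gene's own strand, from RefSeq on GRCm38.p6. Capitals mark matches, on either strand, to GGGCGG, known as the GC box, to CCAAT, known as the CAAT box, to CACGTG, known as the E-box, or to TATAAA, known as the TATA box. No 2 matches overlap, although a GC box and a reversed CCAAT adjoin in the Fkbp5 promoter. Lcn2 lies at chr2:32387740-32387989 on the minus strand and Fkbp5 at chr17:28486150-28486399 on the minus strand. Gadd45g lies at chr13:51846425-51846674 on the plus strand. For Cdkn1a the table gives 2 start sites, and the downstream one is shown, at chr17:29093519-29093768 on the plus strand.
Lcn2: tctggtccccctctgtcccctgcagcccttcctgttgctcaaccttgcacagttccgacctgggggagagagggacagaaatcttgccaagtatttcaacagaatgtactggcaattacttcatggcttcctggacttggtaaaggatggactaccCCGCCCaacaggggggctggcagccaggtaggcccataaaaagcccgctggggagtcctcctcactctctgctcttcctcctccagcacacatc
Cdkn1a: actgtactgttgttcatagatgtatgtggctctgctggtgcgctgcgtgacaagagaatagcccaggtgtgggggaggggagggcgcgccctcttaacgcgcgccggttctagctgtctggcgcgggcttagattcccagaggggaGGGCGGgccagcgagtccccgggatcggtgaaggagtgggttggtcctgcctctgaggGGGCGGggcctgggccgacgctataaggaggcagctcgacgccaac
Fkbp5: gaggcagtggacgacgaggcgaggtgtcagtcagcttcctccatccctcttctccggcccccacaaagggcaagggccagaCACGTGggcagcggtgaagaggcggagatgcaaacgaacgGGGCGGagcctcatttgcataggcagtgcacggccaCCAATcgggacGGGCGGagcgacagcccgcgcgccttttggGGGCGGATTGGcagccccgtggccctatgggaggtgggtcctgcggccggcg
Gadd45g: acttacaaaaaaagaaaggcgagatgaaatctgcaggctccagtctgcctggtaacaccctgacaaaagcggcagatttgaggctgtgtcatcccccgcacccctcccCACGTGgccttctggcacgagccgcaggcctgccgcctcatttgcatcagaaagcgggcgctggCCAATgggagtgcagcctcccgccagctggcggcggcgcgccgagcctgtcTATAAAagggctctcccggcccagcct

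Of the 15 called genes, 13 had a promoter entry (Sgk3 and Smim3 did not). A GC box was found in 9 of the 13, against 32.7% of the 32851 promoters in the table. CCAAT was found in 6, against 33.8%. CACGTG was found in 2, Fkbp5 and Gadd45g, against 6.02%, and TATAAA in 1, Gadd45g, 22 to 27 bases before its start, against 12.4%. The hexamer AGAACA, which is 1 of the paired arms of the consensus glucocorticoid receptor site, was found in 0 of 13 on either strand, against 16.1%, and these letters are thus not in these windows. A gene with 2 start sites was counted once if either held the motif, whereas the shares count every promoter entry. Those shares were not limited to genes tested here, so whether the called genes differ from them was not tested.

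The genes just outside the threshold were singled out after their values were seen. Foxo1, a transcription factor active in fasting, had a difference of -0.97 and an adjusted p of 0.0514. Angptl4, a secreted inhibitor of lipoprotein lipase, had -1.38 ± 0.29 (0.0569), Txnip, an inhibitor of thioredoxin, -1.17 (0.0583), and Nt5c3, a nucleotidase, -0.78 (0.0591). Further out lay Errfi1, a feedback inhibitor of the EGF receptor, at -0.86 (0.065) and Zfp36, which destabilises cytokine messages, at -0.92 (0.0781).

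Among the 39 genes that fell under paraquat in wild-type, Fos had the smallest p for the difference, and none was called there. Fos, the immediate early transcription factor that reports neuronal activity, read 9.65, 9.72 and 9.45 in wild-type saline and 7.74, 7.73 and 7.70 after paraquat. Its transgenic arrays read 9.57, 8.53 and 8.98 under saline and 8.62, 8.95 and 8.95 after paraquat, with full overlap. The effect of paraquat was -1.89 ± 0.26 in wild-type (adjusted p 0.000155) and -0.19 ± 0.26 in transgenic, a difference of 1.70 ± 0.36 with adjusted p 0.0591. Nr4a1, a nuclear receptor induced by activity, had a difference of 0.78 ± 0.19 and Cxcl12, an endothelial and meningeal chemokine, 0.69 ± 0.21, with adjusted p of 0.168 and 0.436. Nr4a1 fell by 0.83 in wild-type and Cxcl12 fell by 1.11, and their transgenic effects were -0.05 and -0.42. The 10 genes with the largest falls in wild-type also included Nr4a2, another activity-induced nuclear receptor, with effects of -1.19 in wild-type and -0.42 in transgenic, and Serpinb1a, a protease inhibitor, with -0.90 and -0.27. Among them were also the endothelial genes Tek, the angiopoietin receptor, with -0.83 and -0.37, and Thbd, thrombomodulin, with -0.79 and -0.32. For each of these 4 genes the transgenic effect was nearer to 0 than the wild-type effect, and none of the 4 differences was called. Over all 39 genes called lower in wild-type the median effect was -0.65 in wild-type and -0.21 in transgenic, and over the 127 called higher it was 0.70 and 0.10. Those genes were selected on the wild-type effect, which enters the difference, and their medians are a description.

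Some of the largest effects in wild-type gave no call in the difference, and for these the transgenic arrays spread widely. Plin4, a coat protein of lipid droplets, had the largest rise in wild-type, from 6.06, 5.95 and 6.58 to 9.52, 9.01 and 9.55. In transgenic it went from 5.91, 6.79 and 6.69 to 8.80, 8.36 and 6.25, so that the first and second paraquat arrays lay well above all saline arrays and the third among them. The difference was -1.82 ± 0.59 (95% interval -3.06 to -0.58, adjusted p 0.507). Zbtb16, a zinc finger repressor induced by glucocorticoids, likewise had transgenic paraquat values of 7.18, 6.36 and 5.61 and a difference of -0.93 ± 0.46. For Cebpd, a transcription factor of the acute phase, the transgenic paraquat arrays read 7.13, 6.65 and 5.58 against 7.70, 7.32 and 7.45 in wild-type (difference -1.54 ± 0.39, adjusted p 0.204).

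The list of 39 tested glucocorticoid response genes held 5 of the 15 called genes: Fkbp5, Sgk3, Cdkn1a, Lcn2 and Mertk. Its share called, 12.8%, stands beside 0.18% of all genes. Lcn2 passed the filter on low values only through wild-type and knock-out paraquat arrays, where it is high. Its place among the tested members thus followed from its paraquat rise, and its call adds nothing to that share as a result about the list. The median difference was -0.72, with 35 of 39 members below 0, against a median of -0.05 over all genes tested, of which 5114 of 8320 were below 0. The median paraquat effect of the list was 0.82 in wild-type, where 27 members were called higher, and 0.16 in transgenic, where 0 were called and 8 had an unadjusted p under 0.05, all higher. Among well-known targets chosen after the values were seen, Sgk1, a kinase that regulates sodium transport, had effects of 1.35 in wild-type and 0.14 in transgenic. Tsc22d3, an anti-inflammatory leucine zipper protein, had 1.13 and 0.30, and their differences, -1.20 and -0.83, had adjusted p of 0.398 and 0.585. Nr3c1, the glucocorticoid receptor itself, had a difference of 0.42, with adjusted p 0.997. Without single arrays the count of called members lay between 2, without the second wild-type or the second transgenic saline array, and 9, without the first transgenic paraquat array. The median lay between -0.84 and -0.54, without the first and the third transgenic paraquat array. The members of this list were chosen with earlier results of these data known.

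**Figure D3:**
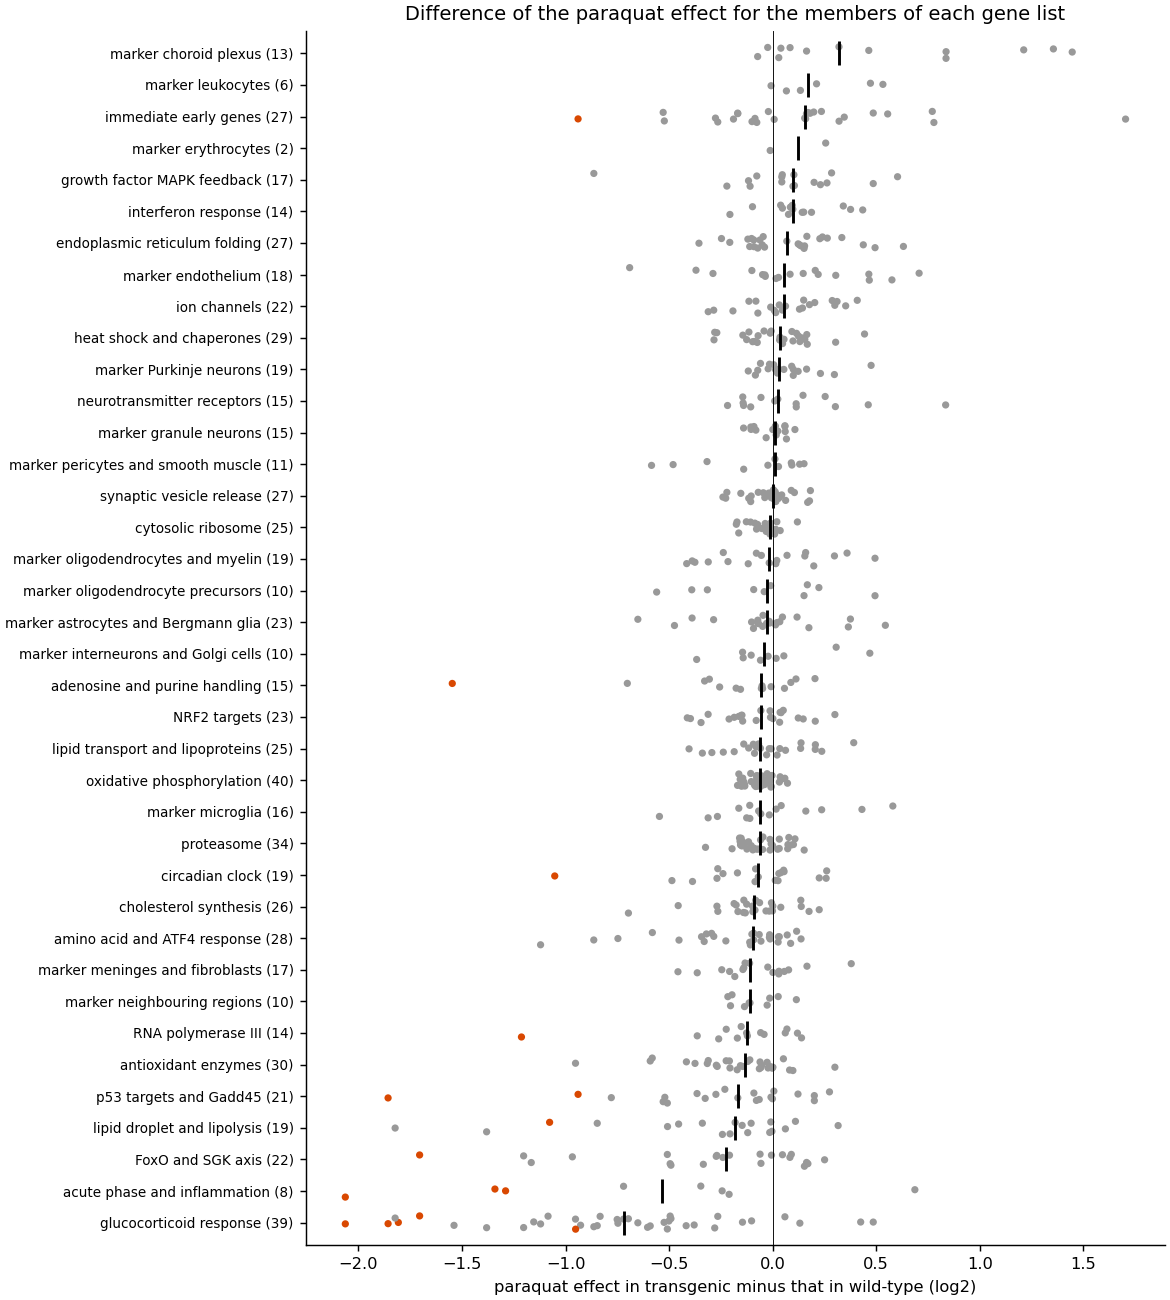
Difference of the paraquat effect (log2, transgenic minus wild-type) on the horizontal axis for every tested member of 38 gene lists, sorted by the list median; the number of members is in brackets. Points are genes, orange where called, and bars are medians, which run from -0.72 for the glucocorticoid response to 0.32 for choroid plexus markers.

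Other stress lists had smaller medians. Their counts stand beside 0.18% of all genes called and 4.54% at an unadjusted p under 0.05 (limma). Some of their members, among them the called Lcn2, Sgk3 and Cdkn1a, are also on the glucocorticoid list, so the lists are not separate evidence. Of 31 acute-phase and inflammation genes on the array, 8 passed the filter on low values, and 3 of these were called (Lcn2, Lrg1, Nrros). The median was -0.53, and between -0.67 and -0.02 under the alternatives. Lcn2 and Lrg1, and Ada below, passed the filter only through wild-type and knock-out paraquat arrays, where they are high. Their place among the tested genes thus followed from the paraquat rise, and the share called cannot be read as a result about the list. In the list of FoxO transcription factors and SGK kinases 1 of 22 was called (Sgk3), with a median of -0.22, and in lipid droplets and lipolysis 1 of 19 (Pnpla2), with -0.18. In these 2 lists 7 and 5 members had an unadjusted p under 0.05, all lower. Of 21 p53 targets and Gadd45 genes 2 were called (Cdkn1a, Gadd45g), with a median of -0.17 and 6 at an unadjusted p under 0.05, all lower. The 14 genes of RNA polymerase III and its factors had 1 called, Polr3e, and a median of -0.12. Of these, 2 had an unadjusted p under 0.05, all lower. The 15 genes of purine handling had 1 called, Ada, and a median of -0.05, and the 19 of the circadian clock had 1 called, Cirbp, and a median of -0.07. There 1 and 2 members had an unadjusted p under 0.05, all lower.

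Lists tied directly to redox defence held no called member, which in lists of this size is near the 0.18% of all genes called. Among 30 antioxidant enzymes 0 were called and 4 had an unadjusted p under 0.05 (limma, all genes 4.54%), all lower. Their median was -0.13, and 25 of the 30 were below 0, against 5114 of 8320 genes tested. The smallest p in this list belonged to Msrb1, a methionine sulfoxide reductase, at -0.58 ± 0.14, followed by Mt2, a metallothionein, at -0.95 ± 0.23, both with adjusted p 0.168. Mt2 read 11.78, 11.81 and 11.91 in wild-type saline and 13.20, 13.06 and 13.22 after paraquat, against 12.25, 12.61 and 12.09 and then 12.78, 13.03 and 12.26 in transgenic, where saline was already higher than in wild-type. Among 23 targets of NRF2, the factor that switches on detoxifying enzymes, 0 were called and 2 had an unadjusted p under 0.05 (median -0.06), led by Nqo1 at -0.41 ± 0.14. The same held for 40 genes of oxidative phosphorylation, with 0 called, 0 at an unadjusted p under 0.05 and a median of -0.06. Of 29 heat shock genes and 25 ribosomal protein genes 0 were called and 0 reached an unadjusted p under 0.05, with medians of 0.04 and -0.02, whose sign was opposite under 5 and 6 of 28 alternatives. Of 27 immediate early genes 1 was called, Gadd45g, and the list median of 0.15 was below 0 under 3 of 28 alternatives.

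Several further lists of stress and lipid genes held no called member, which is again near the 0.18% of all genes called. Counts at an unadjusted p under 0.05 (limma) stand beside 4.54% of all genes. Of 28 genes of the amino acid response driven by the factor ATF4, 0 were called and 5 had an unadjusted p under 0.05, all lower, with a median of -0.10. The smallest p there belonged to Cebpb, a transcription factor of the acute phase, at -0.75 ± 0.24, and to Cth, which makes cysteine, at -0.86 ± 0.30. Of 26 genes of cholesterol synthesis 0 were called and 2 had an unadjusted p under 0.05. They were the sterol enzymes Lss, at -0.70 ± 0.24, and Msmo1, at -0.46 ± 0.19, with a list median of -0.09. Of 25 genes of lipid transport 0 were called and 1 had an unadjusted p under 0.05, Abca1, which loads cholesterol onto lipoproteins, at -0.40 ± 0.17. Of 27 genes of protein folding in the endoplasmic reticulum and 14 interferon response genes 0 were called, with 1 and 0 at an unadjusted p under 0.05. Their medians were 0.07, below 0 under 5 of 28 alternatives, and 0.10. Among 17 genes of growth factor feedback 0 were called and 3 had an unadjusted p under 0.05, among them Errfi1 and Etv5, a factor induced by growth factors, at 0.60 ± 0.23. Of 34 proteasome genes and 27 genes of synaptic vesicle release 0 were called, with 1 and 0 at an unadjusted p under 0.05.

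A list of paraquat-responsive genes was taken from the knock-out effect, which is a difference of knock-out arrays. The list is not fully independent of the 12 arrays compared, because the spread behind its calls, the filter and the choice of probe sets used all 18. Paraquat called 188 genes in knock-out (2.26% of those tested), 66 higher (0.793%) and 122 lower (1.47%). Over the 66 higher genes the median effect was 0.88 in wild-type and 0.18 in transgenic, and the median difference was -0.70. The 66 include Lcn2, Lrg1 and Ada, which passed the filter only through wild-type and knock-out paraquat arrays, where they are high. The place of these genes on the list thus followed from the paraquat rise. The difference was below 0 in 66 of 66, and 13 of the 66 were called, against 0.18% of all genes. That count lay between 4, without the second wild-type or the second transgenic saline array, and 23, when replicate 2 of knock-out paraquat was dropped and the list called again. Fitted through the origin over the 66 genes, the wild-type effects had a slope of 1.06 on the knock-out effects and the transgenic effects a slope of 0.27. Over the 122 lower genes these slopes were 0.65 and 0.25. In transgenic, 61 of the 66 effects were above 0, although 0 were called. Over the 122 genes lower in knock-out, the median effect was -0.36 in wild-type and -0.19 in transgenic, and the median difference was 0.23. Of these, 108 had a difference above 0 and 0 were called. Without the second knock-out paraquat array, 97 genes were called higher and 54 lower, of which 56 and 48 were on the lists from all arrays. The 97 had a median difference of -0.61, below 0 in 97, and slopes of 1.02 for wild-type and 0.25 for transgenic. The 54 had a median difference of 0.36, above 0 in 52, and slopes of 0.86 and 0.25. With the spread estimated from the 6 knock-out arrays alone, 34 genes were called higher and 10 lower. The median differences of these shorter lists were -0.98, below 0 in 34, and 0.60, above 0 in 10. The glucocorticoid list and the 66 genes shared 20 members, 51.3% of the former and 30.3% of the latter. The 46 outside that list had a median difference of -0.60, with 8 called, and median effects of 0.79 in wild-type and 0.14 in transgenic.

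**Figure D4:**
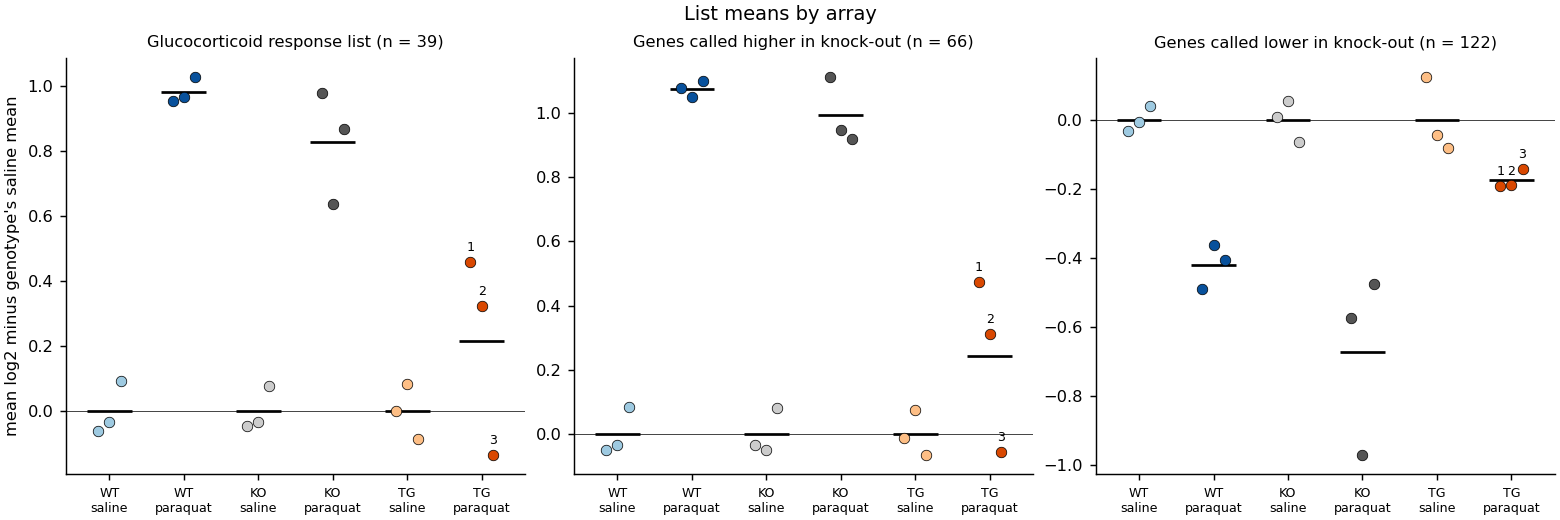
Mean log2 value of 3 gene lists on each of the 18 arrays, minus the mean of the same genotype's saline arrays (vertical axis); points are arrays, bars are group means, KO is knock-out, and numbers mark the transgenic paraquat replicates. For the 39 glucocorticoid response genes wild-type paraquat arrays lie at 0.95 to 1.03, whereas transgenic paraquat arrays lie at 0.46, 0.33 and -0.13.

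On the lists of induced genes the transgenic paraquat arrays spread more widely than the wild-type ones. The mean of the glucocorticoid list, relative to the same genotype's saline arrays, was 0.95, 0.97 and 1.03 on the wild-type paraquat arrays. It was 0.46, 0.33 and -0.13 on the transgenic paraquat arrays. For the 66 genes called higher in knock-out the corresponding values were 1.08, 1.05 and 1.10 in wild-type and 0.47, 0.31 and -0.05 in transgenic. On these lists the first and second transgenic pools thus lay above saline and below every wild-type pool, and the third lay at the level of saline. On the 122 genes called lower in knock-out the 3 transgenic pools were alike, at -0.19, -0.19 and -0.14, against -0.49, -0.36 and -0.41 in wild-type. There the third pool lay below every transgenic saline array, and the spread was smaller in transgenic (SD 0.028) than in wild-type paraquat (SD 0.066). Without the third transgenic paraquat array, 6 genes were called under paraquat in transgenic instead of 0. These were Plin4 at 2.11, Sostdc1 at 1.38, Xdh at 1.31, Cdkn1a at 1.10, Fkbp5 at 1.09 and Sgk3 at 0.91, of which Xdh, xanthine dehydrogenase, rose by 1.57 in wild-type. Without that array 7 genes were called in the difference, and Sgk3 was still among them.

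Control signals of the arrays also moved with genotype and replicate number. The signal of pyruvate carboxylase at its 3′ probe set minus that at its 5′ probe set, which varies with RNA length and labelling, was 1.82 and 1.95 on both arrays that carry replicate number 3 in transgenic. On the other 10 arrays of the comparison it was between 2.63 and 3.16. An 18S rRNA probe set read 7.35 to 8.42 in wild-type and 6.15 to 7.52 in transgenic. The dap spike-in averaged 12.0 and 12.4 on the first transgenic saline and paraquat arrays and at most 10.99 on the others. The part of these signals in the differences was not tested. Without the saline and the paraquat array of transgenic replicate 1, 25 genes were called, without those of replicate 2, 2 genes, and without those of replicate 3, 8 genes. The 2 genes left without replicate 2 were Lcn2 and Sgk3. In transgenic, deviations from the group means of the saline and the paraquat array of the same number correlated at 0.16, 0.13 and 0.42. With replicate number as a block within genotype 29 genes were called, including all of the 15 but Mrnip. With the pyruvate carboxylase signal as a covariate 37 genes were called, including the 15.

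**Figure D5:**
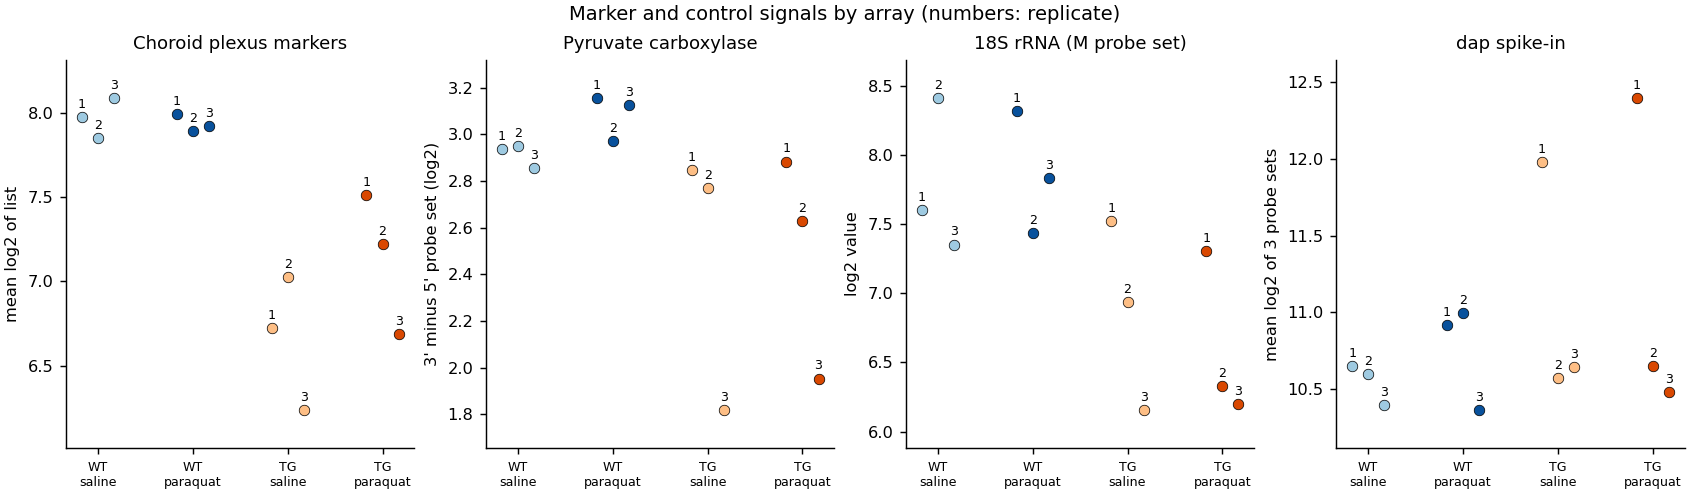
Marker and control signals on the 12 arrays of the comparison, from left to right the mean log2 of 13 choroid plexus markers, the 3′ minus 5′ log2 signal of pyruvate carboxylase, an 18S rRNA probe set and the mean of 3 dap spike-in probe sets. Points are arrays and numbers are replicates; choroid plexus markers read 7.85 to 8.09 in wild-type and 6.23 to 7.51 in transgenic.

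Markers of the choroid plexus, the epithelium that secretes cerebrospinal fluid and adjoins the cerebellum, were lower in transgenic cerebellum. Of 13 tested markers 12 were called lower in transgenic than in wild-type under saline, with a median of -1.32, against 4.38% of all genes. In bulk tissue, fewer cells of a type and less RNA per cell cannot be told apart. Their mean log2 was 7.85 to 8.09 in wild-type saline, 7.89 to 7.99 in wild-type paraquat, 6.23 to 7.03 in transgenic saline and 6.69 to 7.51 in transgenic paraquat. Ttr, transthyretin, the defining product of this epithelium, read 14.4 to 14.5 in wild-type saline, 12.0 to 13.7 in transgenic saline and 13.5 to 14.2 in transgenic paraquat. In the difference of the paraquat effect 0 of the 13 were called (limma, 3 at an unadjusted p under 0.05, all higher) and the median was 0.32. The smallest p was that of Kcne2, a potassium channel subunit, which read 7.41, 7.22 and 7.38 in wild-type saline and 6.72, 6.38 and 6.30 after paraquat. Its transgenic arrays read 5.20, 5.81 and 4.55 under saline and 5.90, 6.06 and 5.35 after paraquat (difference 1.45 ± 0.34, adjusted p 0.141). Sostdc1, a secreted BMP antagonist of that epithelium, had a difference of 1.35 ± 0.42 (adjusted p 0.446). With the mean of these markers as a covariate, 95 genes were called, including the 15, and the glucocorticoid list had a median of -0.89.

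Among markers of other cell types no difference of the paraquat effect was called, at an interval half-width of 0.38 for the median gene, which leaves room for moderate differences. The counts that follow stand beside 0.18% of all genes called in the difference and 4.54% at an unadjusted p under 0.05 (limma). In lists of this size a count of 0 called is near that share. Of 17 markers of meninges and fibroblasts 6 were called lower in transgenic than in wild-type under saline, against 4.38% of all genes. In the difference 0 of the 17 were called, with 1 at an unadjusted p under 0.05 and a median of -0.11. Their mean log2 was 8.37 to 8.60 in wild-type and 7.91 to 8.20 in transgenic arrays. Of 15 granule neuron and 19 Purkinje neuron markers 0 were called, with 0 and 1 at an unadjusted p under 0.05 and medians of 0.01 and 0.03, below 0 under 8 and 2 of 28 alternatives. Of 16 microglial markers 0 were called, with 2 at an unadjusted p under 0.05. Fcgr3, an Fc receptor, had -0.55 ± 0.15 and Cx3cr1, the fractalkine receptor, 0.58 ± 0.23. Of 23 markers of astrocytes and Bergmann glia 0 were called and 3 had an unadjusted p under 0.05. Gjb6, the gap junction protein connexin 30, which the glucocorticoid list also holds, had -0.65 ± 0.23, and the glial factor Sox9 had 0.37 ± 0.16. Of 19 oligodendrocyte markers 0 were called and 1 had an unadjusted p under 0.05, the lineage factor Sox10 at 0.49 ± 0.17. Of 18 endothelial markers 0 were called, with 4 at an unadjusted p under 0.05 (all genes 4.54%), 2 higher and 2 lower, among them the tight-junction gene Cldn5 at 0.71 ± 0.22 (adjusted p 0.461). Cldn5 fell by 0.67 in wild-type, whereas its transgenic effect was 0.04.

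As a description over all 8320 genes, which share a normalisation and are not independent, the paraquat effects of transgenic and knock-out correlated at r = 0.45. Those of wild-type and knock-out correlated at 0.70 and those of wild-type and transgenic at 0.29. With replicate 2 of knock-out paraquat left out, the first of these was 0.33 and the second 0.83. No pair of these effects has an array in common.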

How the data were processed

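Cerebellar RNA was measured on Affymetrix 3′ expression arrays. The authors deposited log2 values per probe set, and RMA, version not given in the sources used here, is the tool in the submitters' processing notes. RMA includes background correction and quantile normalisation, which can compress low signals and large differences. The values ran from 3.13 to 14.9. Arrays whose titles do not name paraquat were taken as saline from the treatment protocol. Scanner files were not used here.

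Of 22690 probe sets, 64 were controls. The platform annotation, which can be old, gave 1 symbol for 20380, several for 691 and none for 1555; only those with 1 symbol were used. For each of 12393 genes the probe set of highest mean over the arrays was kept. A gene was tested when it reached the 40th percentile of probe sets on at least 3 arrays, which left 8320. All 18 arrays were fitted in limma 3.58.1 under R 4.3.3 (lmFit, eBayes) with 6 group means and 12 residual degrees of freedom. Tests were two-sided, with calls at an adjusted p under 0.05 (Benjamini-Hochberg over all genes tested). The fit was tested on simulated data.

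The comparison, the 38 gene lists (889 of 1048 symbols on the array) and the rule for naming genes were chosen with earlier results of these data known. The rule named Apod, called genes, up to 4 called members of each list, otherwise its 2 smallest p-values, and the 10 genes each way with the largest effects among those called in wild-type. Alternatives covered the arrays fitted, weights, normalisation, filters, probe sets, replicate blocks, covariates and each array left out. Promoters came from RefSeq on GRCm38.p6 and were searched on both strands.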

Additional observations from a re-analysis of the deposited data

Results flagged for a closer look

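In 15 genes the paraquat effect differed between transgenic and wild-type cerebellum by the test of the difference itself (limma, adjusted p under 0.05), and each is listed here for that reason. On the log2 scale the differences were -2.06 for Lcn2, -1.86 for Cdkn1a, -1.81 for Fkbp5 and -1.70 for Sgk3. They were -1.55 for Ada, -1.34 for Lrg1, -1.29 for Nrros, -1.21 for Polr3e and -1.08 for Pnpla2. The remaining differences were -1.05 for Cirbp, -0.99 for Smim3, -0.95 for Mertk, -0.94 for Gadd45g, -0.77 for Spns2 and -0.73 for Mrnip. All 15 had an effect above 0 in wild-type, and 2 of them, Spns2 and Mrnip, had an effect below 0 in transgenic, at -0.06 and -0.12.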

How the results depend on the processing

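All 15 differences stayed below 0 under every alternative in which the gene was tested, which follows largely from how the genes were chosen. Lcn2 and Sgk3 were called under all of theirs, 27 and 28 in number. Polr3e and Gadd45g were called under all but 1, the fit without transgenic replicate 2 (limma, adjusted p 0.0911). The other calls were less stable. Of 28 alternatives, Cdkn1a was called under 24, Fkbp5 under 18, Smim3 under 17, Cirbp under 15, Pnpla2 and Spns2 under 14 and Mertk under 12. Of 27 alternatives, Lrg1 was called under 19, Ada and Nrros under 15 and Mrnip under 9. No called difference changed sign. Differences of uncalled named genes changed sign in 10 cases, in Fech, Cbln1 and Igfbp2. Over all named genes and alternatives, 2161 values kept their side of the threshold, 134 lost the call and 95 gained it. Leaving out 1 array gave 4 to 34 called genes, 0 to 4 of them higher in the transgenic. For the same fits the glucocorticoid median lay between -0.84 and -0.54 with 2 to 9 members called. The median of the 66 genes higher in knock-out lay between -0.83 and -0.60 with 4 to 23 called, and that of the 122 lower between 0.18 and 0.36, of which 0 to 3 were called. Paraquat calls were 82 to 353 in wild-type, 0 to 6 in transgenic and 144 to 215 in knock-out. Transgenic against wild-type called 108 to 1564 genes under saline and 828 to 2823 under paraquat.

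Array weights gave 687 called genes, 153 of them higher, with 57, 23 and 30 called members of the knock-out higher, knock-out lower and glucocorticoid lists. They gave 1059, 409 and 2173 calls under paraquat in wild-type, transgenic and knock-out, and 4112 and 4129 for transgenic against wild-type under saline and paraquat. The cause was not tested for any of these changes. With the 12 arrays alone, 10 genes were called, including 8 of the 15. Cdkn1a, Fkbp5, Lrg1, Pnpla2, Mertk, Spns2 and Mrnip lost the call there. In that fit 1 gene was called higher, 1 member of the knock-out lower list and 2 of the glucocorticoid list, and 867 genes differed under saline. The 60th percentile filter gave 13 called genes, including 10 of the 15, among fewer genes tested. Lcn2, Ada, Lrg1, Nrros and Mrnip did not pass it. It gave 1 gene higher, 1 member of the knock-out lower list and 107 paraquat calls in wild-type. Under saline, quantile normalisation gave 1163 calls and centring on the median 933.

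The replicate block gave 7 called genes, 7 members of the knock-out higher list and 3 of the glucocorticoid list. With the replicate block within genotype there were 29, 4 of them higher, and 22, 1 and 12 called members of the 3 lists. That block gave 1 paraquat call in transgenic and 296 in knock-out, and 71 and 269 calls for transgenic against wild-type under saline and paraquat. Whether the replicate numbers pair the arrays is mixed. Deviations of arrays with the same number correlated at 0.16, 0.13 and 0.42 in transgenic, at 0.086, 0.15 and 0.34 in wild-type and at -0.093, -0.28 and -0.12 in knock-out.

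With pyruvate carboxylase as a covariate, 37 genes were called, 9 higher, with 24, 1 and 12 members of the 3 lists and 1 paraquat call in transgenic. The alternatives that follow were chosen after seeing the data. With the knock-out list called on the 6 knock-out arrays alone, 44 genes were called in knock-out, and the median differences were -0.98 for the higher and 0.60 for the lower genes. With the choroid plexus covariate 95 genes were called, 10 higher, with 36, 4 and 20 members of the 3 lists, medians of -0.94 for the knock-out higher and -0.89 for the glucocorticoid list, 1 paraquat call in transgenic and 842 calls under paraquat. Over all genes the median moved from -0.05 to -0.13 there. Without transgenic replicate 1, 25 genes were called, 1 higher, with 1 member of the knock-out lower and 8 of the glucocorticoid list, a knock-out higher median of -0.84 and 1371 calls under saline. Without replicate 2, 2 genes were called, 2 of each of the knock-out higher and glucocorticoid lists, and 105 under saline. Without replicate 3, 8 were called, 1 higher, with 6 of the knock-out higher list, a glucocorticoid median of -0.56, 4 paraquat calls in transgenic and 316 calls under saline. Low signals, such as those of Lcn2, Ada and Lrg1 under saline, limit how well their fold changes are known.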
